A study of Arabidopsis thaliana with 30 samples.

Results

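The enzymes of tetrapyrrole and chlorophyll metabolism were followed through 36 genes in leaf 3 of Arabidopsis thaliana. The genes were chosen by locus, without reference to a threshold on these values, and each had 1 probe set among the 30237 probe sets (29920 loci) of the array, so all 36 were measured. They fall into 7 groups along the pathway: 4 genes form 5-aminolevulinic acid (ALA), 8 lead from ALA to protoporphyrin IX, 8 belong to the magnesium branch, 7 lead from protochlorophyllide to the chlorophylls, 4 make heme and bilin, 1 (FLU) is a regulator, and 4 reduce chlorophyll b or break chlorophyll down. Total RNA of Col-0 seedlings was hybridised to 30 AGRONOMICS1 tiling arrays, 1 per sample, in 10 groups of 3 biological repeats. All plants grew in vitro on MS medium, kept at 22 °C in days of 16 h light and nights of 8 h. The time course of untreated leaves held 18 arrays, 3 for each day between days 8 and 13, counted from stratification, the cold step that synchronises germination. The norflurazon experiment held 12 arrays of seedlings that did or did not receive the herbicide at day 8 and were sampled 24 h later (day 9) or 48 h later (day 10). Its controls, labelled MS, are listed with the same treatment day and hours as the treated plants, whereas the time course has no treatment day. No dose, hour of harvest or number of pooled leaves is stated in the labels.

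Tetrapyrroles are ring molecules built in the plastid from glutamate, by way of ALA, the step at which flux into the pathway is controlled. At protoporphyrin IX the path divides: insertion of magnesium leads to chlorophyll, and insertion of iron leads to heme and to the bilin chromophore of phytochrome. Intermediates of the magnesium branch are photosensitisers, and FLU restrains ALA formation when protochlorophyllide accumulates. Norflurazon blocks phytoene desaturase, encoded by PDS3, so that plastids without carotenoid protection are damaged in the light, a treatment long used to study signals from the plastid to nuclear genes of photosynthesis. Values are log2 expression, and a change is the log2 difference between 2 group means of 3 arrays, ± its standard error in a limma fit. A gene is called where its Benjamini-Hochberg adjusted p, taken over the whole table, is under 0.05. Levels of different genes are not compared, because they come from different probes.

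Array medians ran from 3.50 to 3.63 over the 6 days and from 2.81 to 2.88 in the norflurazon arrays, and each experiment had its own fit. The leaf label was checked against markers. The mesophyll markers RBCS1A, CA1 and LHCB1.4 averaged 9.94 to 10.3 per array at day 8 and 12.4 to 13.2 at day 13, but only 2 of their 4 probe sets were called higher, CA1 by 7.04 ± 0.48 and LHCB1.4 by 3.73 ± 0.27, and those of RBCS1A gave -0.02 ± 0.32 and 0.12 ± 0.31. In every group 3 to 4 of 4 root probe sets and 4 to 5 of 5 shoot meristem probe sets lay at or below the array median. Between days 8 and 13 all 3 guard cell and all 3 vasculature markers were also called higher (beside 13.9% over the whole table). Both trichome markers were called lower (beside 19.8%). In RNA of a whole leaf, a change in the share of a cell type and a change in RNA per cell cannot be told apart, and the part of these shifts in the results was not tested. The pathway genes moved together between repeats of a day: repeat 1 of day 8 was the highest of its group in 31 of 36 genes, repeat 3 of day 9 the lowest in 30, and repeat 1 of day 10 the lowest in 32. Without 1 of these 3 arrays, the counts of called genes given next were 30 (repeat 1 of day 8 left out) for days 8 to 13, 29 and 31 (repeat 1 of day 8 or of day 10) for days 8 to 10, 4 (repeat 1 of day 10) for days 10 to 13, and 29 to 30 over the 6 days. With each of the 18 arrays left out in turn, the count over the 6 days ran from 24 (without repeat 3 of day 8) to 30.

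The first question was how the pathway changes while leaf 3 passes from day 8 to day 13. Of the 36 genes, 28 rose and 0 fell between these days, while calls over the whole table came to 33.7%, with 13.9% higher and 19.8% lower. The median change of the 36 was 0.78, against 0.02 over all probe sets. The largest rises were those of the chlorophyll b enzyme gene CAO (1.96 ± 0.18), the ALA gene HEMA1 (1.76 ± 0.17) and the light-dependent reductase gene PORC (1.52 ± 0.19). The 8 genes that were not called ran from -0.38 for FC1 to 0.46 for HEMC. In 31 of the 36 genes the arrays of day 13 did not overlap those of day 8, among them PPOX2, YCF54, HEMA2 and FC1, which missed the call. The share of all probe sets without overlap was not counted, here or below, and neither was that with an unadjusted p under 0.05. Such counts are therefore description only. A moderated F test over the 6 days called 28 genes, beside 32.4% of all probe sets. In a fit to the 15119 brighter probe sets, which kept all these calls, the shares were larger. There 60.7% were called between days 8 and 13 and 61.3% over the 6 days.

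Most of the rise lay before day 10. Taken as 1 difference, a contrast added after the data were seen, day 10 minus day 8 called 29 genes higher and 0 lower. The median was 0.77 against -0.02 over all probe sets (17.5% called, 6.47% higher and 11% lower). Among the brighter probe sets 37% were called. Over single days fewer genes were called. Between days 8 and 9, 34 of 36 genes lay above 0 with a median of 0.35, yet 0 were called by limma (1.28% of all probe sets), and 22 had an unadjusted p under 0.05. The number of genes called by limma, 0 with all arrays, became 10 without repeat 1 of day 8 and 6 without repeat 3 of day 9. Between days 9 and 10, 5 genes rose (7.38% of all probe sets called, 2.37% higher and 5.01% lower): HEMD by 0.58 ± 0.14, CHLH by 0.49 ± 0.13, GUN4 by 0.41 ± 0.11, CHL27 by 0.58 ± 0.14 and CAO by 0.61 ± 0.18. Here single arrays decided the count, which was 12 without repeat 1 of day 10, 1 without repeat 1 of day 9, and 0 without repeat 3 of day 9 or repeat 2 or 3 of day 10. None of the 36 was called by limma between days 10 and 11 (0% of all probe sets), days 11 and 12 (0.695%) or days 12 and 13 (1.54%), and 1, 1 and 6 genes had an unadjusted p under 0.05 there. From day 10 to day 13, also an added contrast, 4 genes rose and 1 fell while calls over the whole table came to 18%, with 8.31% higher and 9.65% lower. The highest of the 6 daily means fell on day 13 for 20 genes and on day 10 for 11.

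**Figure D1:**
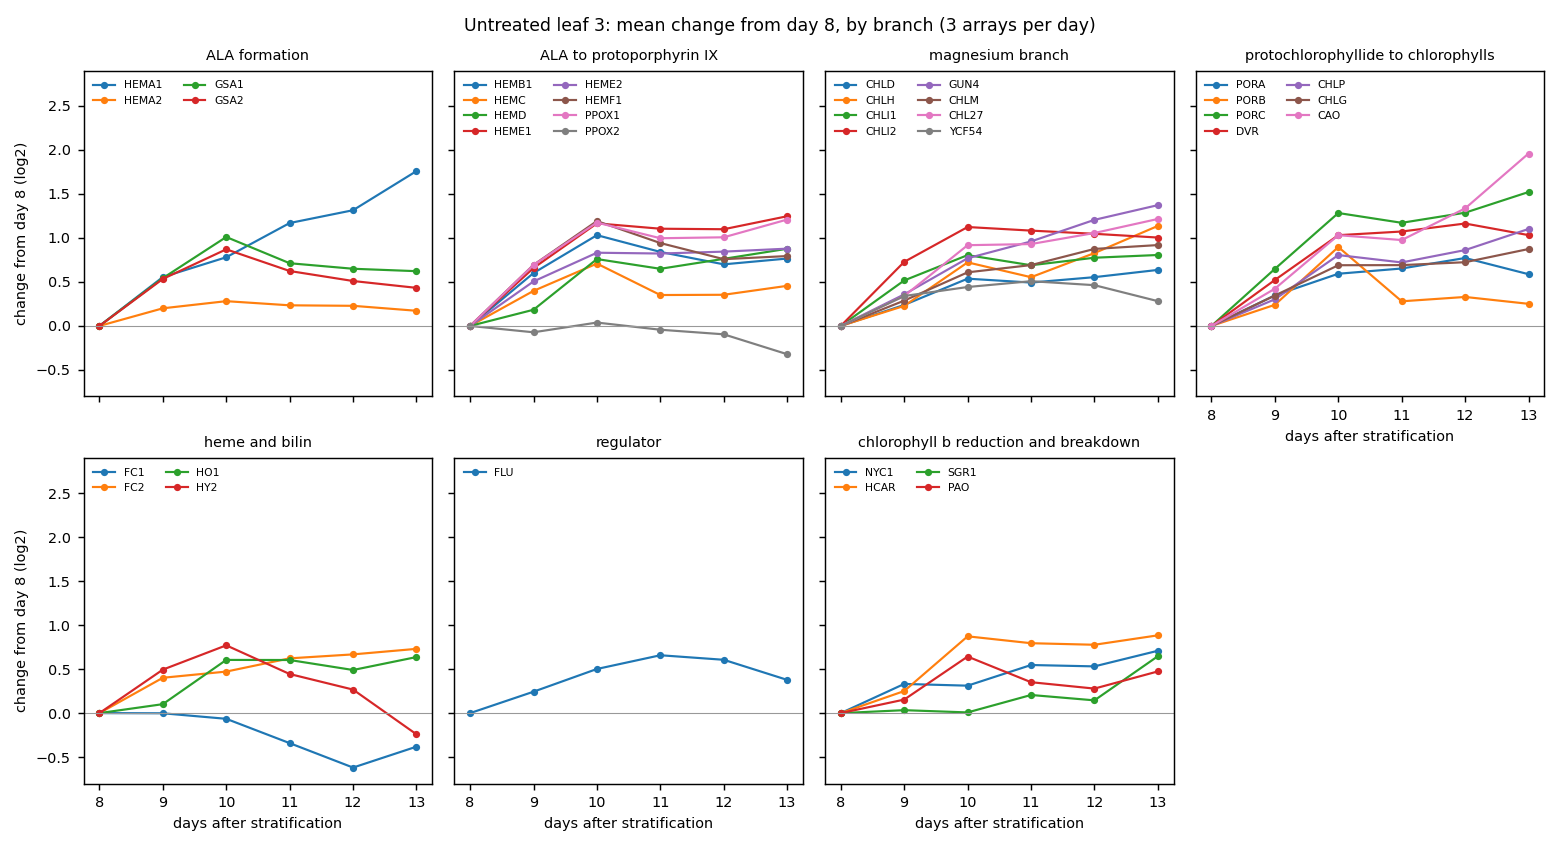
Mean change from day 8 (log2, vertical axis) against days after stratification (horizontal axis) for the 36 genes, 1 panel per pathway group, each point the mean of 3 arrays. Most lines climb to day 10. HEMA1, GUN4, CHLH and CAO climb on to day 13, while GSA1, GSA2 and HY2 stand lower at day 13 than at day 10.

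In ALA formation, 2 of 4 genes rose between days 8 and 13, with a group median of 0.53, and 3 of 4 rose between days 8 and 10, with a median of 0.83. HEMA1 (AT1G58290) and HEMA2 (AT1G09940) encode glutamyl-tRNA reductase, the controlled enzyme of the pathway. HEMA1 read 6.14, 6.10 and 6.28 at day 8, 6.64, 6.99 and 7.23 at day 10, and 7.88, 8.06 and 7.87 at day 13. All 3 arrays of day 13 lay above every array of the earlier days. The rise of HEMA1 was 0.78 ± 0.17 to day 10 (adjusted p = 0.00409) and a further 0.98 ± 0.17 to day 13 (adjusted p = 0.00063). HEMA2 read 3.73, 3.91 and 3.99 at day 8 and 4.06, 4.02 and 4.06 at day 13, a difference of 0.17 ± 0.14 that was not called (adjusted p = 0.396). GSA1 (AT5G63570) and GSA2 (AT3G48730) encode the aminomutase that finishes ALA. GSA1 rose by 1.01 ± 0.18 and GSA2 by 0.87 ± 0.17 to day 10. Their differences between days 10 and 13, -0.39 ± 0.18 and -0.44 ± 0.17, were not called (adjusted p = 0.179 and 0.0914), and at day 13 GSA1 was still called against day 8 (0.62 ± 0.18, adjusted p = 0.0135, up to 0.0715 without repeat 2 of day 8) but GSA2 was not (0.43 ± 0.17, adjusted p = 0.0609).

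On the way from ALA to protoporphyrin IX, 6 of 8 genes rose between days 8 and 13, with a median of 0.84. HEME1 (AT3G14930) and HEME2 (AT2G40490), which encode uroporphyrinogen III decarboxylase, rose by 1.25 ± 0.17 and 0.88 ± 0.16. HEME1 read 7.40, 6.95 and 7.09 at day 8 and 8.45, 8.26 and 8.47 at day 13, with no overlap. HEMD (AT2G26540, uroporphyrinogen III synthase) rose by 0.88 ± 0.14, HEMB1 (AT1G69740, ALA dehydratase) by 0.77 ± 0.21 and HEMF1 (AT1G03475, coproporphyrinogen III oxidase) by 0.79 ± 0.18. Porphobilinogen deaminase, the product of HEMC (AT5G08280), is the enzyme that joins the pyrrole units. HEMC rose to day 10 (0.71 ± 0.17, adjusted p = 0.00821, but 0.0507 without repeat 2 of day 10) and was not called at day 13 (0.46 ± 0.17, adjusted p = 0.0514). Protoporphyrinogen oxidase, the last enzyme before the branch point, has a pair of genes that moved apart. PPOX1 (AT4G01690) read 7.42, 6.75 and 6.95 at day 8 and 8.37, 7.95 and 8.43 at day 13, a rise of 1.21 ± 0.21 (adjusted p = 0.000169). PPOX2 (AT5G14220) read 4.97, 4.62 and 4.62 at day 8 and 4.54, 4.46 and 4.24 at day 13, a difference of -0.32 ± 0.12 that was not called (adjusted p = 0.057).

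In the magnesium branch, 7 of 8 genes rose between days 8 and 13 and 8 of 8 rose between days 8 and 10, and the 3 arrays of day 13 stood above those of day 8 for all 8. The group median went from 0.75 at day 10 to 0.96 at day 13. Magnesium chelatase is built from subunits encoded by CHLD (AT1G08520), CHLH (AT5G13630), CHLI1 (AT4G18480) and CHLI2 (AT5G45930), and the first 3 rose by 0.64 ± 0.13, 1.14 ± 0.13 and 0.81 ± 0.15, CHLI2 2.01-fold (adjusted p = 0.000335). GUN4 (AT3G59400) encodes a porphyrin-binding activator of that enzyme, named for a mutant in which nuclear genes stay active on norflurazon. GUN4 read 9.08, 8.82 and 8.76 at day 8, 9.54, 9.72 and 9.71 at day 10, and 10.34, 10.22 and 10.23 at day 13. These 3 days did not overlap, and the rise from day 10 to day 13 was 0.60 ± 0.11 (adjusted p = 0.00123). CHLH gained 0.41 ± 0.13 over the same later days, a call at the edge of the threshold (adjusted p = 0.0366, and up to 0.138 without repeat 2 of day 13). CHLM (AT4G25080), the methyltransferase gene that follows the chelatase, rose by 0.92 ± 0.13 from day 8 to day 13, and CHL27 (AT3G56940), for a subunit of the cyclase that makes the fifth ring, by 1.21 ± 0.14. YCF54 (AT5G58250), which encodes a factor of the same cyclase, rose to day 10 (0.44 ± 0.11, adjusted p = 0.0117, up to 0.0545 without repeat 3 of day 8) and was not called at day 13 (0.28 ± 0.11, adjusted p = 0.0684).

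Among the genes that lead from protochlorophyllide to the chlorophylls, 6 of 7 rose between days 8 and 13, with the highest group median, 1.03. CAO (AT1G44446) encodes chlorophyllide a oxygenase, which makes chlorophyll b. CAO read 5.69, 5.19 and 5.50 at day 8, 6.15, 6.80 and 6.51 at day 10, and 7.34, 7.24 and 7.67 at day 13. All 3 arrays of day 13 exceeded every earlier array, and CAO rose by 1.03 ± 0.18 to day 10 and by a further 0.93 ± 0.18 to day 13 (adjusted p = 0.00134), 3.89-fold in all. The 3 genes of protochlorophyllide oxidoreductase, the light-driven step, took different courses. PORC (AT1G03630), the form of green tissue, read 7.84, 7.21 and 7.25 at day 8 and 9.08, 8.76 and 9.02 at day 13, with no overlap. PORB (AT4G27440) read 7.35, 7.37 and 7.49 at day 8, 7.90, 8.51 and 8.48 at day 10, and 7.63, 8.04 and 7.29 at day 13, so that the first and last days overlapped. It was not called at day 10 (0.90 ± 0.33, adjusted p = 0.0712) or at day 13 (0.25 ± 0.33, adjusted p = 0.62). PORA (AT5G54190), known from etiolated seedlings, read 3.10 to 3.15 at day 8, below the array median of 3.58. At day 13 it averaged 3.72, where array medians of the time course ran from 3.50 to 3.63. Its rise of 0.59 ± 0.16 at day 13 was called, but its size is uncertain so near the median. The remaining genes rose as well: DVR (AT5G18660, divinyl reductase) by 1.03 ± 0.19, CHLP (AT1G74470, geranylgeranyl reductase for the phytol tail) by 1.10 ± 0.15, and CHLG (AT3G51820, chlorophyll synthase) by 0.87 ± 0.17.

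The 4 genes of heme and bilin had the lowest group median at day 13, 0.20, and 2 of them rose. FC1 (AT5G26030) and FC2 (AT2G30390) encode ferrochelatase, which inserts iron. FC2 rose by 0.73 ± 0.16 (adjusted p = 0.00196), while FC1 gave -0.38 ± 0.18 and was not called (adjusted p = 0.131). HO1 (AT2G26670), the heme oxygenase gene of phytochrome chromophore synthesis, rose by 0.64 ± 0.15. HY2 (AT3G09150) encodes phytochromobilin synthase, the enzyme after HO1, and was the only one of the 36 called lower between days 10 and 13. Its arrays read 5.55, 5.29 and 5.20 at day 8, 5.84, 6.10 and 6.40 at day 10, and 5.23, 5.10 and 4.98 at day 13. Day 10 stood above both other days without overlap, with a rise of 0.77 ± 0.17 (adjusted p = 0.005) followed by a change of -1.01 ± 0.17 (adjusted p = 0.000543). The regulator gene FLU (AT3G14110) rose by 0.50 ± 0.10 to day 10 and stood 0.38 ± 0.10 above day 8 at day 13 (adjusted p = 0.00903, up to 0.0541 without repeat 3 of day 8).

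All 4 genes of chlorophyll b reduction and breakdown rose between days 8 and 13, with a median of 0.68. The moderated F test over the 6 days called only 1 of the 4, HCAR, beside 32.4% of all probe sets. NYC1 (AT4G13250, chlorophyll b reductase) rose by 0.71 ± 0.19 and HCAR (AT1G04620), whose enzyme completes the return from chlorophyll b to a, by 0.88 ± 0.19. SGR1 (AT4G22920), which encodes the magnesium dechelatase of senescing leaves, read 4.99, 4.44 and 4.60 at day 8 and 5.59, 5.19 and 5.20 at day 13, a rise of 0.65 ± 0.22. Its mean at day 10 differed from day 8 by 0.01 ± 0.22 (adjusted p = 0.99). PAO (AT3G44880, pheophorbide a oxygenase) rose by 0.47 ± 0.17. The calls of SGR1 (adjusted p = 0.03) and PAO (adjusted p = 0.0438) were lost without repeat 1 of day 13, where the adjusted p-values were 0.128 and 0.207. Of 6 fits with 1 array left out, SGR1 lost its call in 3 and PAO in 4.

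Paralogs of 1 enzyme were set against each other within each array, so that only a change of their ratio was read. Of 8 pairs, 3 changed their ratio over the 6 days by a permutation test of the F statistic (100000 draws, adjusted over the 8 pairs). The ratio of HEMA1 to HEMA2 rose by 1.59 between days 8 and 13 and that of PPOX1 to PPOX2 by 1.53, while that of FC1 to FC2 changed by -1.11 (adjusted p = 0.00128 each). For FC1 and FC2 the daily mean ratio stood at 0.33 ± 0.17 (SD, n = 3) at day 8 and at -0.78 ± 0.13 (SD, n = 3) at day 13, without overlap of the arrays. The permutation test did not call HEME1 and HEME2, CHLI1 and CHLI2, or PORB and PORC (adjusted p = 0.0595 each), GSA1 and GSA2 (0.199), or PORB and PORA (0.24), where the mean of PORA lay below the array median at days 8 and 9. The ratio of PORB to PORC nevertheless differed by -1.27 between days 8 and 13, with an SD of 0.51 among the day 13 arrays. Whether probes of a pair bind each other's transcripts was not tested.

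**Figure D2:**
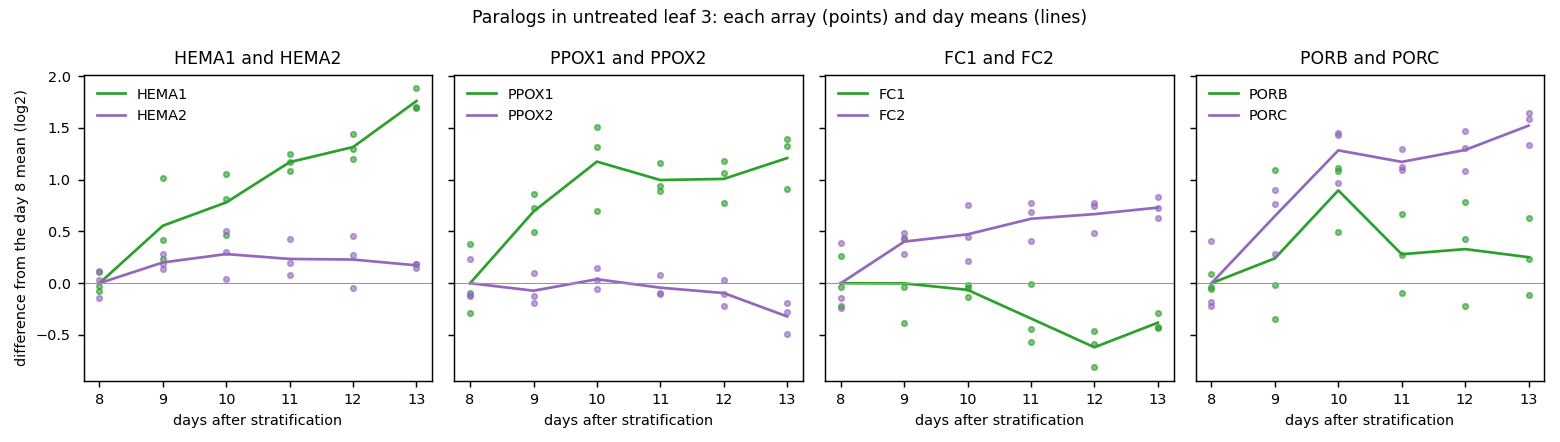
Difference from the day 8 mean (log2, vertical axis) against days after stratification (horizontal axis) for 4 pairs of paralogs, points for single arrays and lines for means of 3. HEMA1 and PPOX1 climb while HEMA2 and PPOX2 stay near or below their day 8 level, FC2 climbs while FC1 drifts lower, and the arrays of PORB scatter widely.

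The other experiment asked how the pathway responded to norflurazon in the first 48 h. After 24 h, at day 9, 15 of the 36 genes were higher in treated than in control leaves and 0 were lower, beside 7.43% of all probe sets called, 3.6% higher and 3.83% lower. In a fit to the 15119 brighter probe sets, which kept these 15 calls, 18.5% were called. The median difference of the 36 was 0.23, against -0.01 over all probe sets, and 25 genes had treated and control arrays that did not overlap. The share of all probe sets without overlap was not counted on either day. After 48 h, at day 10, limma called 0 of the 36 (0.771% of all probe sets), 10 had an unadjusted p under 0.05, 18 had treated and control arrays that did not overlap, and the median was -0.14 with 30 genes below 0. The change of the norflurazon effect between the days, tested as an interaction, was called for 12 genes, all towards lower values (1.95% of all probe sets called, 1.26% higher and 0.688% lower). Among the brighter probe sets the interaction was called for 6.14%. The target gene itself, PDS3, differed by 0.02 ± 0.08 at day 9 and by -0.10 ± 0.08 at day 10, neither of them called (adjusted p = 0.925 and 0.625).

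**Figure D3:**
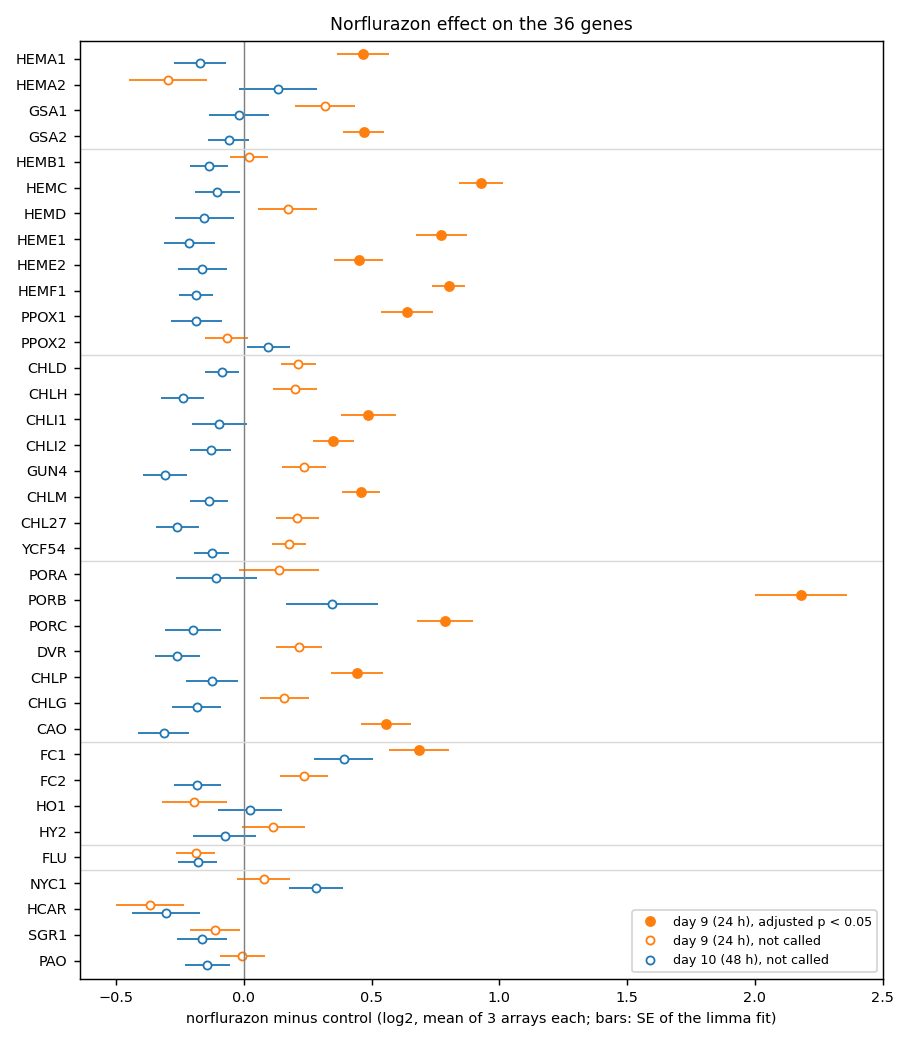
Norflurazon minus control (log2, horizontal axis, means of 3 arrays each) for the 36 genes in pathway order, at day 9 (orange) and day 10 (blue), with bars of ± 1 standard error and filled points for called genes. At day 9, 15 points are filled, all to the right of 0 and PORB farthest at 2.18. At day 10 none is filled and 30 of 36 lie left of 0.

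The control leaves of day 9 differed from the other 3 groups in more than this pathway. SEN1, a gene induced in darkness, read 6.98, 8.83 and 8.22 in them, 3.85, 3.26 and 3.10 in treated leaves of day 9, 2.76, 2.81 and 2.68 in control leaves of day 10, and 3.74, 4.08 and 4.39 in treated leaves of day 10. The control arrays of day 9 stood above all others, and norflurazon minus control was -4.61 ± 0.36 for SEN1 (adjusted p = 7.22e-05) at day 9. A list of 11 genes induced by darkness or starvation, chosen after the data were seen, averaged 4.39 to 4.95 per array in control leaves of day 9, against 3.78 to 3.87, 3.30 to 3.44 and 3.74 to 3.84 in treated leaves of day 9, controls of day 10 and treated leaves of day 10. Of the 11, 4 were called lower under norflurazon at day 9 (3.83% of all probe sets). In control leaves 7 fell from day 9 to day 10 (6.31% of all probe sets). Of 11 clock genes, chosen in the same way, 1 was called under norflurazon at day 9 (LHY at -0.48), beside 7.43% of all probe sets. At day 10, 2 were called (LHY at -0.55 and LUX at 0.63), beside 0.771%. In control leaves 3 fell from day 9 to day 10 (TOC1 by 0.48, GI by 0.32 and ELF3 by 0.38), beside 6.31%. Mesophyll markers averaged 10.8 to 11.3 per array in control leaves of day 9 and 11.5 to 11.7 in treated ones, where 1 of 4 probe sets was called (LHCB1.4), 2 were above 0 and the range was -0.10 to 1.47. Of 3 vasculature markers 2 were called lower under norflurazon at day 9, SUC2 at -0.30 ± 0.07 and APL at -0.48 ± 0.10. The vasculature list averaged 3.61 to 3.77 per array in control and 3.37 to 3.52 in treated leaves. Of 2 trichome markers GL1 was called higher under norflurazon on both days, at 0.56 ± 0.10 and 0.63 ± 0.10, and the list averaged 5.38 to 5.54 in control and 5.65 to 5.76 in treated leaves of day 9. None of the 3 guard cell markers was called by limma at either day. At day 10 their differences nevertheless ran from -1.13 to -0.28, and treated and control arrays did not overlap in all 3. The 4 mesophyll probe sets ran from -0.95 to -0.08 at day 10, with 0 called by limma and 2 without overlap. These differences run along with the norflurazon results, and their part in them was not tested.

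PORB showed the largest response of the 36. Its arrays read 6.13, 6.86 and 5.96 in control and 8.43, 8.43 and 8.63 in treated leaves at day 9, and 9.39, 9.31 and 9.30 in control and 9.80, 9.61 and 9.63 in treated leaves at day 10. Treated arrays lay above controls on both days, but only the first difference was called, at 2.18 ± 0.18 (adjusted p = 8.53e-05), which is 4.53-fold. The later one was 0.35 ± 0.18 (adjusted p = 0.43), and the interaction was -1.83 ± 0.26 (adjusted p = 0.00475). PORB rose by 3.02 ± 0.18 from day 9 to day 10 in control leaves and by 1.18 ± 0.18 in treated leaves. In the time course, on other plants and in a separate fit, PORB gave 0.66 ± 0.33 over the same days and was not called, a contrast between experiments that was not tested. PORC responded at day 9 as well, from 7.94, 7.64 and 7.91 in control to 8.59, 8.74 and 8.52 in treated leaves (0.79 ± 0.11, adjusted p = 0.00134). PORA stood at 2.45 to 2.74 in control and 2.68 to 2.85 in treated leaves, around the array median of 2.8, and gave 0.14 ± 0.16 (adjusted p = 0.725). PORA rose to day 10 in both, by 1.24 ± 0.16 in control and 0.99 ± 0.16 in treated leaves. The size of both rises is uncertain, because the day 9 means lay below the array median.

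Upstream, the response at day 9 took in 2 of 4 genes of ALA formation and 5 of 8 between ALA and protoporphyrin IX. HEMC read 8.78, 8.57 and 8.56 in control and 9.50, 9.69 and 9.51 in treated leaves, a difference of 0.93 ± 0.09 (adjusted p = 0.000172). At day 10 the control arrays of HEMC had reached 9.95, 9.79 and 9.91, while the treated ones read 9.87, 9.75 and 9.72. Treated leaves of day 9 thus lay between the control leaves of the 2 days and overlapped neither. HEMF1 ran likewise, from 7.28, 7.33 and 7.26 in control to 8.19, 8.05 and 8.03 in treated leaves at day 9 (0.80 ± 0.07, adjusted p = 8.53e-05), and 8.30, 8.32 and 8.31 against 8.09, 8.11 and 8.17 at day 10. The other calls of these groups at day 9 were HEMA1 (0.47 ± 0.10), GSA2 (0.47 ± 0.08), HEME1 (0.77 ± 0.10), HEME2 (0.45 ± 0.09) and PPOX1 (0.64 ± 0.10). HEMB1 (0.02 ± 0.07), HEMD (0.17 ± 0.12) and GSA1 (0.32 ± 0.12) were not called, and neither were the second copies HEMA2 (-0.30 ± 0.15) and PPOX2 (-0.07 ± 0.08). Of these calls HEMA1 and HEME2 rested on single arrays, with adjusted p up to 0.0592 without repeat 2 of the controls and 0.057 without repeat 2 of the treated leaves.

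In the chlorophyll branches, 3 of 8 genes of the magnesium branch and 4 of 7 genes after protochlorophyllide were higher at day 9. CHLM read 9.69, 9.62 and 9.84 in control and 10.14, 10.18 and 10.21 in treated leaves (0.46 ± 0.07, adjusted p = 0.00292). CAO read 5.60, 5.53 and 5.63 in control and 6.22, 5.99 and 6.23 in treated leaves (0.56 ± 0.10, adjusted p = 0.00536). Neither gene had overlapping arrays. CHLI1 (0.49 ± 0.11), CHLI2 (0.35 ± 0.08) and CHLP (0.44 ± 0.10) were also called, with adjusted p up to 0.0721, 0.0771 and 0.086 when 1 array was left out (repeat 2 of the treated leaves for both CHLI genes and repeat 3 of the controls for CHLP). GUN4 differed by 0.23 ± 0.09 and CHLH by 0.20 ± 0.09, neither of them called (adjusted p = 0.143 and 0.214). At day 10 the treated arrays of GUN4 read 9.76, 9.80 and 9.75 and lay below the controls at 10.25, 9.95 and 10.04, a difference of -0.31 ± 0.09 that was not called (adjusted p = 0.126). All 8 genes of the magnesium branch had a mean difference below 0 at day 10, from -0.31 to -0.08.

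Among the genes off the chlorophyll path, FC1 alone was called at day 9. FC1 read 5.69, 5.32 and 5.31 in control and 6.16, 6.20 and 6.03 in treated leaves at day 9 (0.69 ± 0.12, adjusted p = 0.00409), and 5.92, 5.79 and 5.62 against 6.15, 6.29 and 6.06 at day 10 (0.39 ± 0.12, adjusted p = 0.144). Treated arrays were above controls on both days, and the interaction was not called (-0.29 ± 0.16, adjusted p = 0.496). FC2 differed by 0.24 ± 0.09 at day 9 and -0.18 ± 0.09 at day 10, HO1 by -0.19 ± 0.13 and 0.02 ± 0.13, and HY2 by 0.12 ± 0.12 and -0.07 ± 0.12. FLU gave -0.19 ± 0.08 and -0.18 ± 0.08. The 4 genes of chlorophyll b reduction and breakdown ranged from -0.37 for HCAR to 0.08 for NYC1 at day 9 and from -0.30 for HCAR to 0.28 for NYC1 at day 10, with 0 called by limma on either day.

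**Figure D4:**
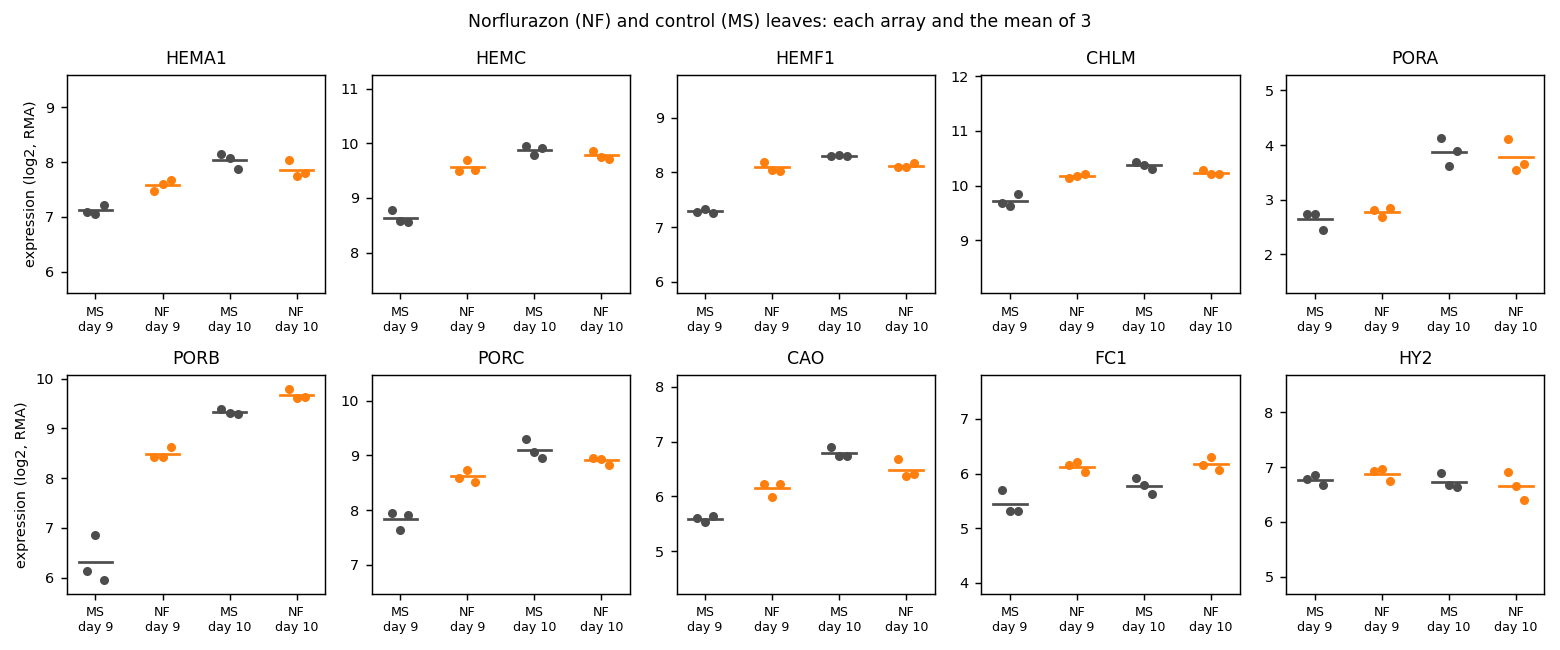
Expression (log2, vertical axes, a separate range in each panel) of 10 genes in control (MS, grey) and norflurazon (NF, orange) leaves at days 9 and 10, points for single arrays and bars for means of 3. For HEMC, HEMF1, PORC and CAO the treated arrays of day 9 lie between the controls of the 2 days, FC1 is higher in treated leaves on both days, and the groups of HY2 overlap.

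The interaction is the same as the difference between the day 9 to day 10 changes of treated and of control leaves. In control leaves 22 of the 36 rose and 1 fell between those days (11.5% of all probe sets called, 5.18% higher and 6.31% lower), with a median of 0.49. In treated leaves 2 rose, PORA and PORB (1.96% called, 1.65% higher and 0.314% lower). Among the brighter probe sets 27% were called in control and 5.52% in treated leaves. After PORB, the largest control rises were those of PORC (1.28 ± 0.11), HEMC (1.24 ± 0.09), PORA and CAO (1.21 ± 0.10), where treated leaves gave 0.29 ± 0.11 for PORC, 0.21 ± 0.09 for HEMC and 0.34 ± 0.10 for CAO. HEMA2 was the gene that fell in control leaves (-0.56 ± 0.15, adjusted p = 0.0322, up to 0.117 without repeat 1 of day 9). The called interactions fell to 2 of 4 genes of ALA formation, 5 of 8 up to protoporphyrin IX, 2 of 8 in the magnesium branch, 3 of 7 after protochlorophyllide, and 0 of the 9 others. Control leaves of day 9 enter every one of them, and 8 of the 12 held whichever single array was left out. The exceptions were HEMA1, GSA2, HEME2 and GUN4, with adjusted p up to 0.112, 0.0895, 0.097 and 0.105.

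The paralog pairs were tested for unequal response over both days by an exact permutation test, exchanging treatment labels within each day (400 arrangements, two-sided, smallest possible p 0.005, adjusted over 8 pairs). In 3 pairs the ratio was higher under norflurazon in this exact test, each with p = 0.005 and adjusted p = 0.0133. PORB gained 0.97 on PORC and FC1 gained 0.51 on FC2. PORB gained 1.25 on PORA, but at day 9 the mean of PORA lay below the array median in control and treated leaves, so this value is not read as an unequal response of the 2 genes. The gain of FC1 over FC2 was 0.45 at day 9 and 0.57 at day 10, whereas that of PORB over PORC was 1.39 and 0.55. In the other 5 pairs the exact test gave adjusted p from 0.29 to 0.385. Its statistic is the mean over both days, so it cannot show changes of opposite sign. The ratio of HEMA1 to HEMA2 changed by 0.76 at day 9 and -0.31 at day 10. For PPOX1 to PPOX2 the values were 0.70 and -0.28, and for HEME1 to HEME2 0.32 and -0.05. The days were not tested apart, so an unequal response at day 9 was not tested.

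Of 21 further genes of tetrapyrrole metabolism, 11 rose and 0 fell between days 8 and 13, with a median of 0.37. The extremes were MES16, a methylesterase of chlorophyll catabolites, with 1.77 ± 0.22, and UPM1, the methyltransferase that leads to siroheme, with -0.21 ± 0.21, which was not called. At day 9 of the norflurazon experiment 1 of the 21 was called (4.76%, against 7.43% of all probe sets). It was the chlorophyllase gene CLH2, lower at -0.72 ± 0.15 (adjusted p = 0.0111). At day 10 limma called 0 of the 21 (0.771% of all probe sets). A list of 8 regulators and PDS3 had a median of 0.74 between days 8 and 13. Of these 9 genes 5 were called higher, beside 13.9% of all probe sets, and 2 lower, beside 19.8%. Under norflurazon at day 9 it had 2 lower (HY5 and GNC), beside 3.83% of all probe sets. At day 10 it had 1 lower (GLK1), beside 0.771% called. In the interaction it had 1 higher (HY5) and 1 lower (GLK1), beside 1.26% and 0.688%. From day 9 to day 10 in control leaves it had 2 higher (GLK1 and GLK2), beside 5.18%. In the same leaves 3 were lower (HY5, GNC and CGA1), beside 6.31%. GLK1, a transcription factor that activates chlorophyll and antenna genes, rose by 2.36 ± 0.19 between days 8 and 13 and HY5, a light-signalling factor, changed by -1.29 ± 0.16. GLK1 read 7.97, 7.90 and 7.64 in control and 7.18, 7.13 and 6.94 in treated leaves at day 10, without overlap (-0.75 ± 0.14, adjusted p = 0.0343). Its rise from day 9 to day 10 was 2.57 ± 0.14 in control leaves, and its interaction was -1.15 ± 0.20. HY5 was lower in treated leaves at day 9, at -0.73 ± 0.12, and GNC, a GATA factor of chlorophyll genes, at -0.47 ± 0.11, where GLK1 gave 0.40 ± 0.14 (adjusted p = 0.125). The antenna gene LHCB1.4 went the way of the pathway, with 1.47 ± 0.12 at day 9 and an interaction of -2.02 ± 0.17.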

How the data were processed

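Per the submitters' processing notes, the authors made the deposited log2 values with RMA on the TAIR9 annotation. Which version of RMA, which probe definitions and which filters were used is not given in the sources used here. RMA, as usually run, gives all arrays of a batch 1 distribution, so a value is relative to the other transcripts on its array. Raw intensities were not used. Precision is limited by the number of arrays, 3 per group, and p-values reflect the spread among biological repeats, as the labels name them.

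Genes were matched by the locus in the probe set ID, before its suffix (0 for 23 of the 36, X for 13), and all 36 loci were found in a reference table of RefSeq genes, used for names only. No coordinates or sequences are given, because no genome of the array's build was used here. Both experiments were modelled apart in R 4.3.3 by limma 3.58.1, using group means, contrasts and eBayes, with 12 residual and 4.32 prior degrees of freedom in the time course and 8 and 3.77 in the norflurazon experiment. P-values were adjusted over all 30237 probe sets within each contrast, with no filter on dim ones. The fit was tested on simulated data first, with noise drawn independently for each probe set. Genes that move together within an array, as the 36 did, were not simulated, and the outcome is not given here. The table has no detection call, so the size of a change from a group mean at or below its array median is uncertain.

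The 36 genes, the paralog pairs and the lists were chosen with earlier results of these data known. All 36 are reported, by their values where called in a contrast or part of a pair and otherwise by range, with 21 other tetrapyrrole genes and a list of 8 regulators and PDS3 by count. The contrasts of day 10 with days 8 and 13 and the lists of dark and clock genes were added after seeing the data. Alternatives were a further quantile normalization, an intensity trend, a filter on dim probe sets, the repeat number as a block, fits to the compared arrays only, and leaving out each array. The labels do not say whether the repeat numbers pair the samples. With group means removed, same-numbered arrays of the time course had correlations from -0.25 to 0.17 (2 of 45 over 0.1). Those of the norflurazon experiment ran from -0.06 to 0.09 (0 of 18 over 0.1). Over the 36 genes, repeat 1 was the highest in 20 and 29 in control leaves of days 9 and 10. In treated leaves it was the highest in 3 at day 9 and 27 at day 10.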

Additional observations from a re-analysis of the deposited data

Results flagged for a closer look

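For 12 of the 36 genes the effect of norflurazon differed between day 9 and day 10 by the limma test of the difference itself (adjusted over all probe sets). The effect at day 10 minus that at day 9 was -1.83 for PORB, -1.03 for HEMC, -0.99 for HEMF1, -0.99 for HEME1, -0.99 for PORC and -0.87 for CAO. It was -0.82 for PPOX1, -0.64 for HEMA1, -0.61 for HEME2, -0.60 for CHLM, -0.54 for GUN4 and -0.53 for GSA2. In each gene the effect was above 0 at day 9 and, except in PORB, below 0 at day 10. GUN4 was the only one of the 12 whose effect was called on neither day. The control leaves of day 9, in which SEN1 and other genes induced by darkness or starvation stood higher than in the other 3 groups, enter all 12 values, and their part was not tested.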

How the results depend on the processing

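No result changed direction under any alternative that was run, and no scaling moved the median of all probe sets by over 0.1. Over the single genes called, 1837 of the repeated fits kept the call and 148 lost it. The counts over single days were the least stable. The count for days 8 to 9 (0 genes) became 5 with a further quantile normalization and 3 with a filter on dim probe sets, and 0 to 10 with 1 array left out. The count for days 9 to 10 (5 genes) became 15 with a further quantile normalization, 10 with the filter, 3 with the replicate block and 0 with only the compared arrays, and 0 to 12 with 1 array left out, where 0 of the 5 calls held throughout. The count for days 10 to 13 (5 genes) became 10 with a further quantile normalization (8 higher and 2 lower). The cause was not tested.

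With 1 array left out, 25 to 30 genes were called between days 8 and 13 and 24 of the 28 calls held throughout, 26 to 31 between days 8 and 10 (24 of 29), 10 to 16 under norflurazon at day 9 (10 of 15), 8 to 11 in the interaction (8 of 12) and 0 under norflurazon at day 10. The moderated F test over the 6 days called 24 to 30 genes, and 24 of its 28 calls held throughout. The paralog pairs called in the report kept their calls throughout. Of the pairs not called over the 6 days by permutation, CHLI1/CHLI2 reached adjusted p = 0.0411 with a further quantile normalization and ran from 0.00834 to 0.148 with 1 array left out. PORB/PORC ran from 0.0229 to 0.148, HEME1/HEME2 from 0.0204 to 0.176, and GSA1/GSA2 from 0.0204 to 0.302. The values under the threshold came without repeat 1, 2 or 3 of day 9 or, for CHLI1/CHLI2, repeat 1 of day 12 (0.0437) and, for PORB/PORC, repeat 2 of day 13 (0.0412).

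With the replicate block, 27 genes were called between days 8 and 13, 15 under norflurazon at day 9 and 8 in the interaction, where HEMA1, GSA2, HEME2 and GUN4 lost the call (adjusted p = 0.0814, 0.0526, 0.0515 and 0.0901). Whether the repeat numbers pair the samples is not stated in the labels, so both fits are given. The 3 arrays per group limit what single days can show.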
